A study of Mus musculus with 2 samples.

Results

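Bach2, Bcl6, Prdm1, Gfi1 and Zeb1 are 5 genes for DNA-binding repressors that act in developing and mature lymphocytes. They were chosen by name as a functional group. No measured value entered that rule, although earlier results of these data were known. The background is the 21701 protein-coding genes of the autosomes and the X chromosome, of which they are 5. Their open chromatin was read from DNase-seq, an assay that digests nuclei with DNase I and maps where the cuts fall, since open DNA is cut most often. A peak is a stretch with many cuts, and a footprint is a short stretch inside open DNA with fewer cuts than its surroundings. Thymus tissue came from 2 female mice of the strain B6CASTF1/J at 14 days of age, which are F1 hybrids between C57BL/6J and CAST/EiJ. They form 1 group with no treated, mutant or control animals, and the labels number them as biological replicates 1 and 2 (animals 5 and 6) under a shared donor identifier. Nothing in the labels says more about how separate the animals were, so each spread below is the spread between these 2 samples, and no test between groups exists. Each gene was followed over its gene record and 100 kb to either side. These domains held 130 of the 97051 peaks of replicate 1 and 147 of the 108010 peaks of replicate 2.

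A sequence-specific repressor binds short DNA strings and recruits corepressors that remove activating histone marks. BACH2 pairs with small MAF proteins and restrains effector programmes in B and T cells. BCL6 is known from germinal centre B cells and follicular helper T cells, and PRDM1 (Blimp-1) from plasma cells and effector T cells; the BCL6 and PRDM1 proteins are textbook opponents that repress each other's genes, and BACH2 is also known to repress Prdm1. GFI1 works with the demethylase KDM1A in blood progenitors and early thymocytes. ZEB1 binds E-boxes, is known from epithelial-mesenchymal transition, and is needed for early thymocyte development.

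The tissue label was checked against marker promoters. All 6 thymocyte markers (Cd3e, Cd4, Cd8a, Rag1, Ptcra and Bcl11b) had a promoter peak in both replicates, with summed strengths of 50.8 and 17.9. Of the B cell markers, Cd79a and Pax5 were at 0 in both, and Ms4a1 had 0 in replicate 1 and 0.178 in replicate 2. Of the other lists, 1 of 2 plasma cell markers (summed strengths 0.810 and 0.985, Jchain at 0), 2 of 5 myeloid markers (1.74 and 1.16; Csf1r, Mpo and Elane at 0), 1 of 3 thymic epithelium markers (1.26 and 0.714; Foxn1 and Psmb11 at 0), 1 of 2 erythroid markers (1.63 and 1.44; Hba-a1 at 0) and 2 of 4 endothelium and mesenchyme markers (9.40 and 5.12; Cdh5 and Col1a1 at 0) were open in both. Strength is the authors' own signal value of a peak, and it carries an unknown factor per sample. Replicates are therefore compared by percentile, the rank of a value within its own replicate from 0 to 100. The tables do not give the read depth. In a bulk tissue, opening in fewer cells and weaker opening in each cell cannot be told apart.

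All 5 promoters were open. A promoter counted as open if both replicates had a peak no more than 500 bp from an annotated transcription start site (TSS), and the share of all protein-coding genes that met this was 58.6%. Strengths of the strongest promoter peak, in replicate 1 and then replicate 2, were 10.2 and 5.44 for Bach2, at the 81.5 and 79.9 percentiles of all genes. Zeb1 had strengths of 10.7 and 4.38, at the 82.6 and 73.4 percentiles. Both genes stood well above the middle of all genes in each animal.

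Gfi1 had promoter strengths of 6.32 and 2.88, at the 71.5 and 63.9 percentiles, from peaks of adjoining elements. Bcl6 had 3.45 and 4.17, at the 61.5 and 72.0 percentiles, and was the 1 member whose deposited value was larger in replicate 2. Prdm1 had the lowest values, 3.10 and 2.15, at the 60.2 and 59.1 percentiles. The mean percentiles with their SD (n = 2) were 80.7 ± 1.17 for Bach2, 78.0 ± 6.48 for Zeb1, 67.7 ± 5.37 for Gfi1, 66.8 ± 7.43 for Bcl6 and 59.7 ± 0.77 for Prdm1. In that order, Bach2 and Zeb1 overlapped in their replicate values, as did Gfi1 and Bcl6, and Prdm1 lay below all others in both replicates. Among open promoters only, the median strengths were 5.80 and 3.74, so Prdm1 lay below the middle of open genes in both replicates, whereas Bach2 and Zeb1 lay above it in both.

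The promoters differed in base composition. The ratio of observed to expected CpG in the promoter window was 0.982 for Bach2, 0.981 for Bcl6, 0.953 for Zeb1 and 0.879 for Prdm1, at the 88.8 percentile of all genes or higher. Gfi1 had 0.588, at the 51.2 percentile. Of the 6276 genes with a ratio over 0.75, 94.2% had an open promoter in both replicates, so 4 of the 5 open promoters belong to a class that is nearly always open in this tissue.

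Beyond the promoters the genes differed more. Distal peaks are those farther than 500 bp from any gene's TSS. Gfi1 had 22 and 33 distal peaks in replicates 1 and 2, or 10.5 and 15.8 per 100 kb of its domain. Bcl6 had 18 and 25, or 8.04 and 11.2 per 100 kb. Both densities were above the upper quartile of all genes in each replicate (7.51 and 8.21).

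Bach2 had 38 and 40 distal peaks, the most in number, but its long domain of 547.3 kb gave 6.94 and 7.31 per 100 kb. Prdm1 had 18 and 13, or 6.18 and 4.46 per 100 kb. Zeb1 had 11 and 14, or 2.87 and 3.65 per 100 kb, below the medians of all genes (4.06 and 4.95) in both replicates. The means ± SD (n = 2) were 13.1 ± 3.71 for Gfi1, 9.61 ± 2.21 for Bcl6, 7.13 ± 0.258 for Bach2, 5.32 ± 1.21 for Prdm1 and 3.26 ± 0.553 for Zeb1. Only Gfi1 and Bcl6 overlapped in their replicate values, and Prdm1 changed sides of the all-gene median between replicates.

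**Figure D1:**
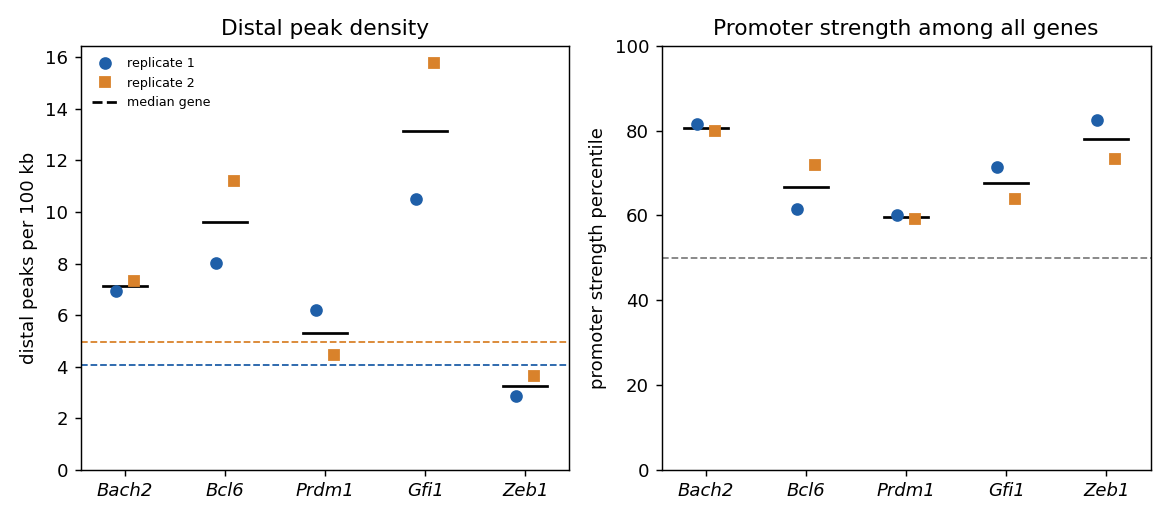
Left, distal peaks per 100 kb of gene record and 100 kb flanks; right, percentile of the strongest promoter peak among 21701 genes, with circles for replicate 1, squares for replicate 2 and black bars for their mean. Dashed lines are the all-gene median of each replicate (left) and the 50 percentile (right), and Zeb1 pairs a promoter at the 82.6 and 73.4 percentiles with distal densities of 2.87 and 3.65, below both medians.

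Zeb1 and Gfi1 stood at opposite ends of the density order, and both promoters were open. Promoter peaks made up 46.1% and 27.4% of the summed peak strength in the domain of Zeb1, against 25.2% and 23.3% for Gfi1, 13.6% and 17.0% for Prdm1, 11.2% and 12.6% for Bach2 and 15.1% and 8.30% for Bcl6. Zeb1 had the highest share in each replicate.

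Peaks of both replicates that overlapped by at least 1 bp were joined into elements. The 5 domains held 168 elements, of which 96 were found in both replicates, 28 in replicate 1 alone and 44 in replicate 2 alone. Over all 127957 elements of the series, 53.7% were found in both, 18.6% in replicate 1 alone and 27.7% in replicate 2 alone. Of the 168, 12 lay at a member's promoter, 13 at the TSS of another gene and 143 were distal. In replicate 1, 82 of 107 distal peaks (76.6%, 95% Wilson interval 67.8 to 83.6) overlapped a peak of the other replicate, beside 72.7% of all distal peaks. In replicate 2, 83 of 125 did (66.4%, 57.7 to 74.1), beside 61.5% of all. Both intervals hold the background share, and they cover counting error only. Of the elements called in replicate 1 alone, 10 of 28 still overlapped bases that the other replicate's track lists below a false discovery rate of 0.05, and 5 of the 44 called in replicate 2 alone did the same in replicate 1. That track was read in the 5 domains only, so no share over all elements stands beside these 2 counts. Among the strongest 10% of all peaks of a replicate were 6 of the 107 distal peaks (5.61%, beside 3.52% of all distal peaks) and 4 of the 125 (3.20%, beside 3.92%). The shares of shared peaks and of strong peaks were thus close to those of distal peaks anywhere.

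**Figure D2:**
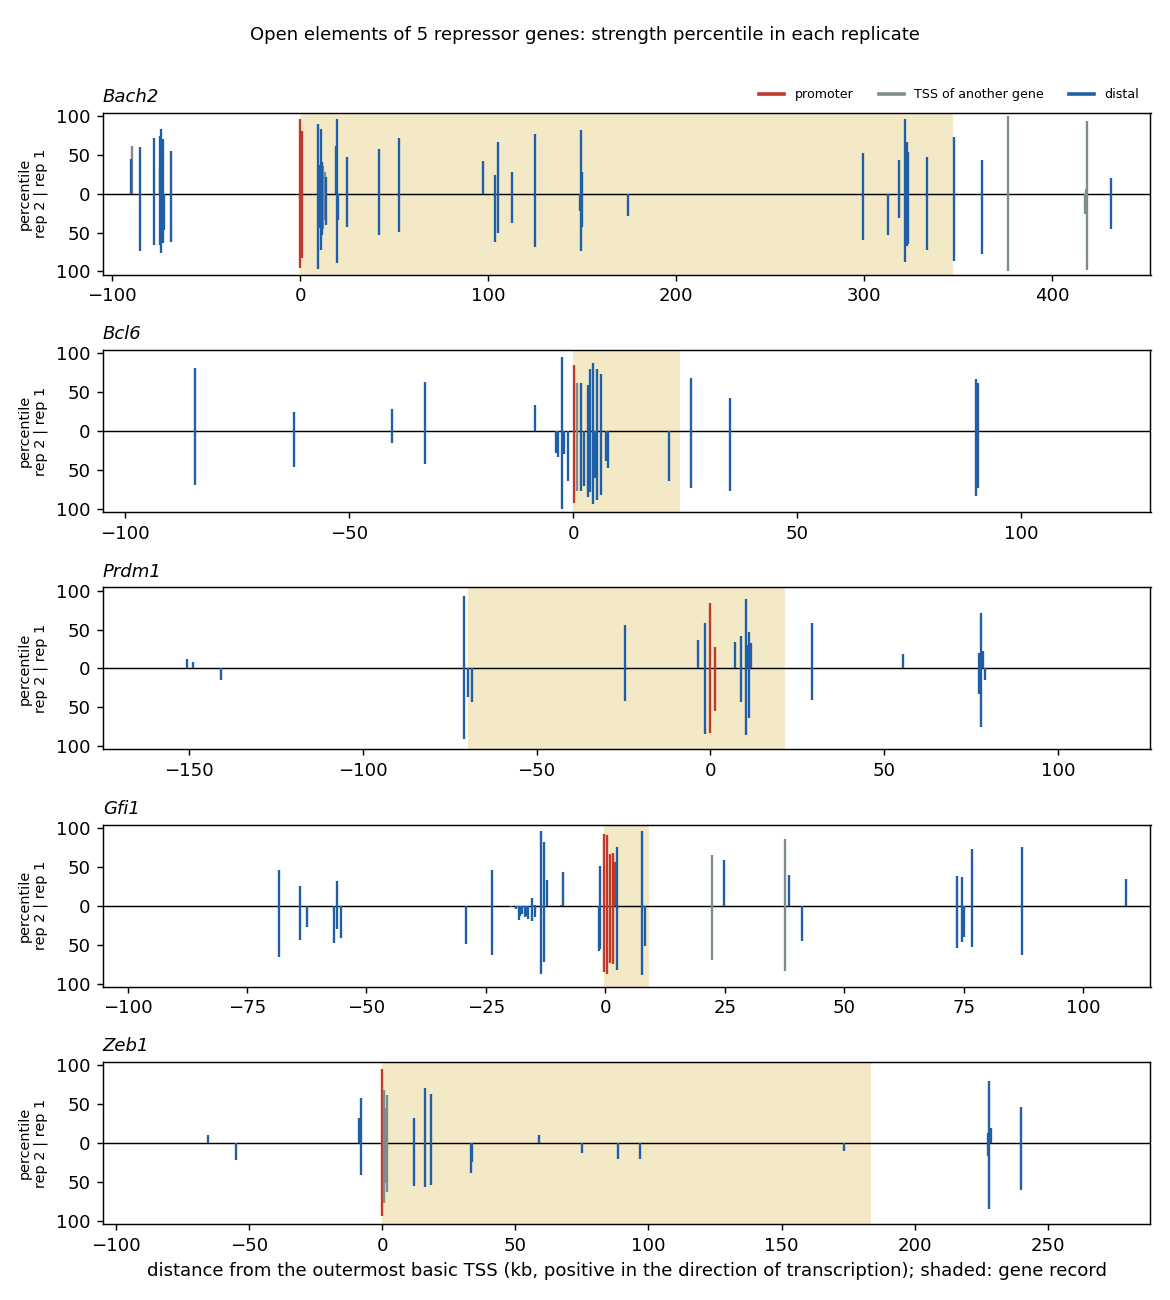
Each vertical line is 1 element, placed by its distance from the outermost annotated TSS (kb, positive in the direction of transcription), with its strength percentile drawn upwards for replicate 1 and downwards for replicate 2; lines on 1 side only were called in that replicate alone. Shading marks the gene record. Bcl6 elements crowd around the start, many of them called in replicate 2 alone. Bach2 has a long empty stretch of 124.8 kb in its body, and the weak cluster upstream of Gfi1 is mostly called in 1 replicate.

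Bach2 (ENSMUSG00000040270) spans chr4:32238804-32586108 on the plus strand of mm10. Its strongest promoter peak lay at chr4:32238561-32238780, just upstream of the outermost TSS and between genes, with strengths of 10.2 and 5.44 and 5 and 4 footprints. Here and below, distal elements found in both replicates are ranked by the mean of their 2 percentiles. The first for Bach2 lay in intron 1, at chr4:32248361-32248560, 9.7 kb downstream of the TSS. It had strengths of 4.91 and 5.96 (89.3 and 96.2 percentiles) and 3 and 5 footprints. The 200 bases before the TSS (chr4:32238604-32238803) and this element are printed as the promoter and the top-ranked distal element of the gene, 5′ to 3′ on the plus strand, with capitals for bases inside footprints of both replicates (67 and 92 bases).
Bach2 promoter: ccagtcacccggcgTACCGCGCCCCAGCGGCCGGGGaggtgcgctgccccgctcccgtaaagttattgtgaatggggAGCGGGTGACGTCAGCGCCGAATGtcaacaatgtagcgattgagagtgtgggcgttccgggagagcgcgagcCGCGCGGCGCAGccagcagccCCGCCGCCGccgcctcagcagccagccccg
Bach2 intron 1 element: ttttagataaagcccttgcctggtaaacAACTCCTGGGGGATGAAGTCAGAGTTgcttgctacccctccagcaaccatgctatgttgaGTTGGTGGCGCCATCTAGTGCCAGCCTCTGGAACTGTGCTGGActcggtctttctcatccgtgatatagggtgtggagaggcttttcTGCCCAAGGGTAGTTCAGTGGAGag

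The next Bach2 elements in rank were also in introns, and in replicate 1 both were stronger than the first. The element in intron 1 at 19.5 kb (chr4:32258221-32258440) had strengths of 9.83 and 3.09, and the one in intron 4 at 321.6 kb (chr4:32560321-32560560) had 10.5 and 2.73. The second lies inside the antisense gene Bach2os. Of the 40 distal elements of Bach2, 27 lay in the gene body, 10 upstream and 3 downstream, and none within 5 kb of the TSS. The farthest shared elements were 85.2 kb upstream (strengths 1.05 and 1.38) and 431.2 kb downstream, inside Mdn1 (0.390 and 0.570). The strongest peak of the whole domain belonged to a neighbour, the promoter of Casp8ap2, with strengths of 21.6 and 10.1. DNase-seq does not say which gene a distal element serves.

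The third annotated start of Bach2 was closed. The TSS at chr4:32417435, the only Bach2 start in the RefSeq promoter table, had no peak and 0 footprints within 500 bp in either replicate. It lies in a stretch of 124.8 kb with no peak of either replicate (chr4:32413348-32538160). The starts at chr4:32238804 and chr4:32238950 shared the open promoter.

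Bcl6 (ENSMUSG00000022508) spans chr16:23965052-23988852 on the minus strand and had the most distal elements near its start. Of its 25 distal elements, 11 lay within 5 kb of the TSS and 16 within 10 kb, against 1 within 10 kb for Bach2, 2 for Zeb1, 4 for Prdm1 and 8 for Gfi1. Only 15 of the 25 were found in both replicates, and many of those within 10 kb were called in replicate 2 alone. By mean percentile, the strongest shared distal element of all 5 genes lay 2.5 kb upstream of the Bcl6 TSS, between genes, at chr16:23991281-23991440. Its strengths were 9.47 and 12.1 (94.9 and 99.8 percentiles), with 3 footprints in each replicate and lowest false discovery rates of 5.1e-29 and 2.6e-143. It was stronger than the Bcl6 promoter (3.45 and 4.17) in both replicates.

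The element 4.5 kb downstream, in intron 1 (chr16:23984281-23984500), had strengths of 3.93 and 4.77, and the one at 5.4 kb (chr16:23983341-23983560) had 2.43 and 2.84. The first holds a match to the CTCF motif, the binding string of an insulator protein, and is shown although it was chosen after the values were seen. The element 2.5 kb upstream and the one at 4.5 kb are printed on the plus strand. Capitals mark bases inside footprints of both replicates (80 and 62 bases). The last line gives the bases chr16:23988581-23988605, in exon 1 of the gene and inside its promoter peak. They hold a string of the BCL6 factor's own type (chr16:23988589-23988597), in capitals.
Bcl6 upstream element: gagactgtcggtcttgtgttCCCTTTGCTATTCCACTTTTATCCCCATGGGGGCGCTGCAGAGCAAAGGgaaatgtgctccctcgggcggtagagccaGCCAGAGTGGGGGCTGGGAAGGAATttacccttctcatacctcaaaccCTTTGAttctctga
Bcl6 intron 1 element: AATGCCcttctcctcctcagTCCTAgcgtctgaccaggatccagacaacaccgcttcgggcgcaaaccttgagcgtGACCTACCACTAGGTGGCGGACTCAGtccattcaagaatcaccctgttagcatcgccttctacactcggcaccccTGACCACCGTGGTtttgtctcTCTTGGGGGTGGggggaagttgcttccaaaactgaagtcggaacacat
Bcl6 exon 1 string: tccggcctTTCCTAGAAacttcttg

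The farthest shared Bcl6 elements lay 84.4 kb upstream (strengths 2.65 and 1.15) and 90.4 kb downstream (1.12 and 1.32). The second RefSeq start, at chr16:23981283, had no peak in replicate 1 and one of strength 0.610 in replicate 2. Of the 17 shared Bcl6 elements, 13 had the higher percentile in replicate 2, and 9 further elements were called in replicate 2 alone against 1 in replicate 1 alone. Over all elements of the series, 57.8% of shared ones were higher in replicate 2, and 27.7% were called in replicate 2 alone against 18.6% in replicate 1 alone. The promoter peak of Bcl6 also lies within 500 bp of the start of the gene Gm37419.

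Prdm1 (ENSMUSG00000038151) spans chr10:44437177-44528501 on the minus strand. The neighbouring starts at chr10:44458748 and chr10:44458687 had promoter strengths of 3.10 and 2.15. The start at chr10:44457210 had 0.467 and 0.731. A start outside the basic annotation, at chr10:44528501, had no peak in replicate 1 and one of 0.461 in replicate 2. The first pair was thus the strongest of the annotated starts in both animals.

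The strongest distal element of Prdm1 lay 70.8 kb upstream of that promoter, between genes, at chr10:44529461-44529660. It had strengths of 6.88 and 3.35 (92.4 and 90.2 percentiles) and 4 and 5 footprints, and it was stronger than the promoter in both replicates. It lies just beyond the far start of the gene record and is the farthest shared element upstream. The next, in intron 4 at 10.4 kb (chr10:44448221-44448500), had 4.94 and 2.42. Both are printed because one holds a string of the PRDM1 type and the other a string of the BCL6 type, on the plus strand with capitals for bases inside footprints of both replicates (47 and 14 bases). In the intron element the capitals fall on a GT repeat.
Prdm1 upstream element: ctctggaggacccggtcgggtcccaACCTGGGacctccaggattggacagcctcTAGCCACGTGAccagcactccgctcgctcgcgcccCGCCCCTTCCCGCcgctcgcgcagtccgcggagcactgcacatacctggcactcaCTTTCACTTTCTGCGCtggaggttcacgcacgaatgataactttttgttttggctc
Prdm1 intron 4 element: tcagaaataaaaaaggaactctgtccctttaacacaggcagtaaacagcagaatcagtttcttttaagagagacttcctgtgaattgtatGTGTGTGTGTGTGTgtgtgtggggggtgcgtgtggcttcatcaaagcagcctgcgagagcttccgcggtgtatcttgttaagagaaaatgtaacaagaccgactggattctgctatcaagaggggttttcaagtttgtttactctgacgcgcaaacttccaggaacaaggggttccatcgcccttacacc

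The third Prdm1 element by mean percentile lay 77.9 kb downstream between genes (chr10:44380581-44381060), with 1.58 and 1.44 and 6 and 12 footprints. The gene body held a stretch of 43.8 kb without peaks (chr10:44483441-44527220). Of 23 Prdm1 elements, 11 were shared, 8 were called in replicate 1 alone and 4 in replicate 2 alone. It was the only member with more elements of replicate 1 alone.

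Gfi1 (ENSMUSG00000029275) spans chr5:107716657-107726036 on the minus strand, the shortest gene of the group at 9.4 kb. Its start had the most promoter elements of the group, 5, of which 4 were shared. At the outer TSS (chr5:107725805) the strongest peaks had 6.32 and 2.88, in adjoining elements. The element at chr5:107725681-107726360 had 6.32 and 2.37, and the one at chr5:107725261-107725680 had 5.48 and 2.88. At the inner TSS (chr5:107724343) the strengths were 1.36 and 1.43. The promoter elements at 0.3 and 0.9 kb also lie near the start of A430072P03Rik, transcribed the other way.

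The strongest distal element of Gfi1 overlapped exon 7, at chr5:107717801-107718340 and 7.7 kb from the TSS, with strengths of 12.0 and 3.01. It is too long to print. The next lay 13.4 kb upstream between genes, at chr5:107739101-107739380, with 12.1 and 2.74 (96.5 and 87.4 percentiles) and 6 and 3 footprints. It is printed as the top-ranked element outside the gene, on the plus strand with capitals for the 35 bases inside footprints of both replicates.
Gfi1 upstream element: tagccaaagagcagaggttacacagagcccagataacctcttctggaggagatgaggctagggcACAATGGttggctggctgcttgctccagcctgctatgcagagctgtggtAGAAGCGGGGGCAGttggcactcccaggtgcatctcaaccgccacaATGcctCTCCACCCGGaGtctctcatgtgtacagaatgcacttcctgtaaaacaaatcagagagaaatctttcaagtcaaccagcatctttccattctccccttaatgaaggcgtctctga

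A run of weak elements lay around it. Between 8 and 20 kb upstream there were 17 elements, of which 4 were shared, 4 called in replicate 1 alone and 9 in replicate 2 alone. In 12 of the 17, every call was below the 20 percentile. The lowest false discovery rates of these 12 ran from 4.1e-16 (chr5:107741901-107742080, replicate 2) to 1.3e-2 (chr5:107744284-107744320, replicate 2). Low strength there thus did not always go with a high false discovery rate. Without peaks in the weakest 20% of each replicate, a step chosen after the values were seen, Gfi1 kept 8.60 and 10.5 distal peaks per 100 kb, beside 8.04 and 10.7 for Bcl6. Of the Gfi1 distal peaks, 4 of 22 in replicate 1 and 11 of 33 in replicate 2 were in that weakest class, and without them Bcl6 was the denser gene in replicate 2 and Gfi1 in replicate 1. The third element, in exon 3 at 2.4 kb, had 1.90 and 1.97. The farthest shared elements lay inside neighbours, 68.3 kb upstream in Evi5 (0.722 and 1.01) and 87.2 kb downstream in Rpap2 (1.95 and 0.950).

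Zeb1 (ENSMUSG00000024238) spans chr18:5591860-5775467 on the plus strand. One element at the start, with strengths of 10.7 and 4.38 and 3 and 7 footprints, lay within 500 bp of the TSS of Zeb1 and of annotated starts of Gm10125 and Gm2238, which are transcribed the other way. In intron 1, 3 further shared elements lay at 0.8 kb (1.39 and 1.56), 1.4 kb (0.717 and 0.668) and 1.8 kb (1.15 and 0.933). They lie within 500 bp of annotated Gm10125 starts, so they were not counted as distal. Some Zeb1 starts outside the basic annotation, such as chr18:5593308, lie there too. The distal elements of Zeb1 were weak. The strongest lay 228.0 kb from the TSS, downstream of the gene, with 2.36 and 2.26 (79.6 and 84.3 percentiles). In intron 1, the elements at 16.2 and 18.3 kb had 1.57 and 0.760, and 1.15 and 0.720. The farthest shared elements lay 7.8 kb upstream (1.01 and 0.512) and 240.1 kb downstream (0.738 and 0.852). None of its distal peaks was among the strongest 10% of a replicate, and the body held a stretch of 76.5 kb without peaks.

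The median strength percentile of distal peaks followed another order than their density. It was 64.7 and 70.3 for Bcl6, 54.1 and 60.8 for Bach2, 41.6 and 43.4 for Gfi1, 39.1 and 42.5 for Prdm1 and 32.0 and 30.9 for Zeb1, beside 43.4 and 44.2 for all distal peaks. Bcl6 and Bach2 lay above the value for all distal peaks in both replicates, and Gfi1, Prdm1 and Zeb1 below it in both, Gfi1 narrowly. The replicates ranked the shared elements alike. Across the 96 shared elements, the replicates' strengths had a Spearman's rho of 0.82, and their log2 values a Pearson's r of 0.85. Within genes rho was 0.91 for Gfi1 (21 elements), 0.82 for Bach2 (36), 0.79 for Zeb1 (11), 0.75 for Prdm1 (11) and 0.65 for Bcl6 (17). Elements of a gene share a library and are not replicates, so these are descriptions.

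Footprints were about as dense as elsewhere. Per peak there were 2.81 and 2.81 for Bcl6, 2.51 and 2.79 for Bach2, 2.40 and 2.87 for Prdm1, 2.38 and 2.05 for Gfi1 and 1.53 and 2.28 for Zeb1, beside 2.35 and 2.51 over all peaks. The means ± SD (n = 2) were 2.81 ± 0.00374 for Bcl6, 2.65 ± 0.198 for Bach2, 2.63 ± 0.330 for Prdm1, 2.22 ± 0.232 for Gfi1 and 1.91 ± 0.526 for Zeb1. Of the footprints in the domains, the share that overlapped one of the other replicate ran from 32.5% (Gfi1) to 56.5% (Bcl6) in replicate 1 and from 24.2% (Gfi1) to 48.9% (Bach2) in replicate 2. No share over all footprints was set beside these.

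The strings that the 5 factors bind were then searched in their own genes' elements, on both strands. The BCL6 string TTCCTNGAA was in 8 of 168 elements (4.76%), beside 1.25% of all elements of the same widths. The looser STAT string TTCNNNGAA, which every BCL6 string also matches, was in 20 (11.9%, beside 6.39%). The PRDM1 string AAAGTGAAA was in 3 (1.79%, beside 0.666%). The ZEB string CAGGTG, a short and common E-box, was in 46 (27.4%, beside 27.4%). The AP-1 string TGACTCA was in 11 (6.55%, beside 5.02%), the longer BACH string, which contains it, in 1 (0.595%, beside 0.322%), and the GFI1 string in 1 (0.595%, beside 0.501%). These counts of few matches are descriptions, and a match is not a bound site.

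The BCL6 strings were spread over 4 of the genes. Bach2, Bcl6, Prdm1 and Gfi1 had 2 elements each with the string and Zeb1 had 0. A single Bach2 element in intron 1 (chr4:32291321-32291800, strengths 1.59 and 0.633) held 3 of them. In Prdm1 both were in intron 4, in the printed element at 10.4 kb and at chr10:44449824-44449832, and the latter element also held an AP-1 string at chr10:44449810-44449816. In Bcl6 one was the printed exon 1 string, in a footprint of replicate 1 alone. None of the 10 BCL6 matches and none of the 13 AP-1 matches overlapped footprints of both replicates by 1 base or more. Of the PRDM1 matches 1 of 3 did, the one in the printed upstream element of Prdm1 itself (chr10:44529606-44529614). Of the ZEB matches 1 of 60 did, at the Gfi1 promoter (chr5:107725842-107725847). The looser STAT string did so in 2 of 29 matches. They lay at the Bcl6 promoter (chr16:23988653-23988661) and in a distal Bach2 element (chr4:32343957-32343965), and neither was also a BCL6 string.

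Strings of other factors were searched in the same way. The share of matches inside footprints of both replicates was not computed over all elements, so these overlap counts have no background. The strings differ in length. Some BCL6 and AP-1 matches lay in elements called in 1 replicate alone, whereas all 5 CTCF matches lay in shared elements. The CTCF motif was in 5 elements (2.98%, beside 4.84% of all elements of the same widths), 3 of Bach2 and 2 of Bcl6, and all 5 matches overlapped footprints of both replicates. In Bach2 they lay 85.2 kb upstream, in intron 5 and just past the gene's end (348.0 kb), and in Bcl6 in the printed intron 1 element and 90.4 kb downstream. The RUNX string TGTGGT was in 36 elements (21.4%, beside 20.9%), with 2 of 45 matches overlapping footprints of both. The TCF string CCTTTGA was in 7 elements (4.17%, beside 4.90%), and 1 of 7 matches overlapped footprints of both, at the end of the printed upstream element of Bcl6. The ETS string AGGAAGT was in 20 (11.9%, beside 11.8%), the GATA string AGATAA in 18 (10.7%, beside 8.23%), the other E-box CAGCTG in 35 (20.8%, beside 20.2%) and the NF-kappaB string in 3 (1.79%, beside 1.49%).

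**Figure D3:**
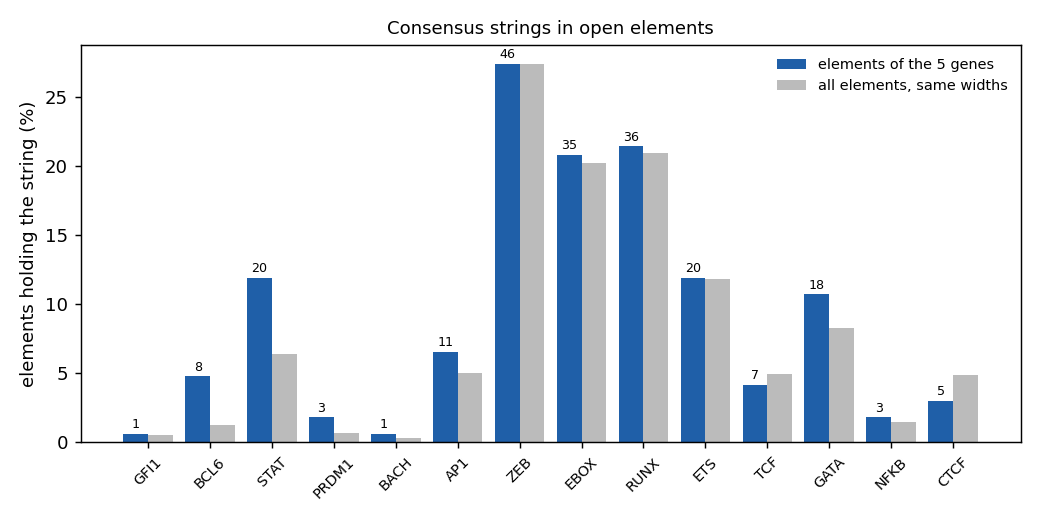
Share of elements (%) that hold each consensus string, for the 168 elements of the 5 genes (blue, with the number of elements above) and for all elements weighted to the same widths (grey). The BCL6 and STAT bars of the 5 genes, at 4.76% and 11.9%, exceed their grey bars of 1.25% and 6.39%, and most other pairs are close.

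Genes that work with the 5 repressors were mostly open too, beside 58.6% of all protein-coding genes. They were not compared with genes of like CpG ratio, so whether their share is unusual was not tested. All 3 small Maf partners of BACH2 were open, led by Mafk (11.0 and 9.44). Of 12 corepressors and enzymes, 11 were open in both replicates, among them Rcor1 (34.7 and 9.73) and Kdm1a (7.92 and 7.46), which act with GFI1, and Ncor1 (11.3 and 4.51), a BCL6 corepressor. Ctbp2 had no promoter peak in either. Of the 4 paralogs, Bach1 (14.3 and 7.32) and Zeb2 (0.738 and 0.875) were open, whereas Bcl6b and Gfi1b had no promoter peak in either replicate. The members themselves thus had open promoters in 2 families where the close relative was closed.

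Among 15 genes known as repressed by a member, 10 were open in both replicates, 3 in neither (Ciita, Pax5 and Csf1r) and 2 in 1 replicate. The last were Il2 (0.561 in replicate 1) and Ifng (0.202 in replicate 2). Id2 (14.3 and 5.60), a known GFI1 target, and Id3 (8.87 and 5.36), an inhibitor of E proteins, were the strongest of the 10. Prdm1 and Bcl6 are in this list and among the members. The overall share of open genes was 58.6%, and an open promoter does not say whether a gene is transcribed.

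**Figure D4:**
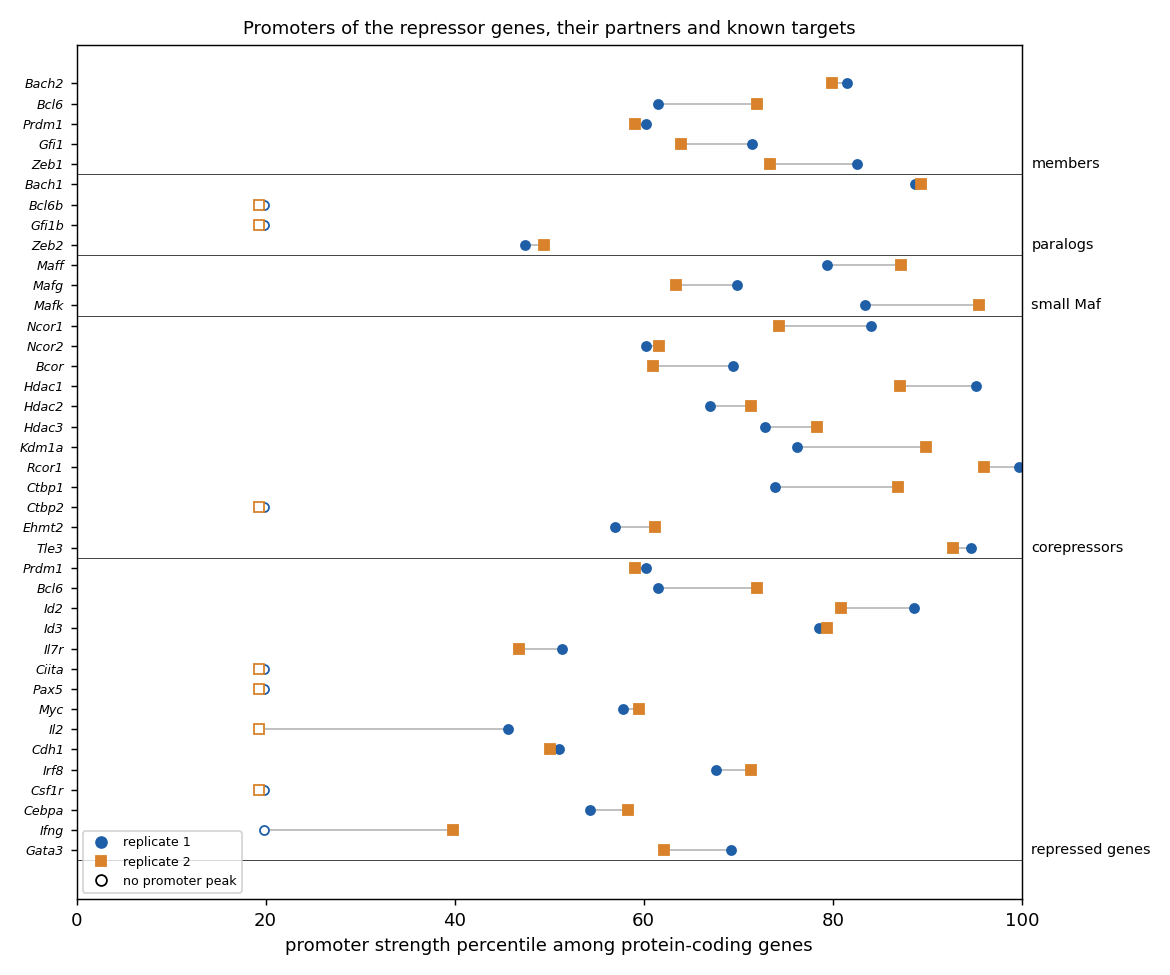
Promoter strength percentile among 21701 genes for the 5 members, paralogs, small Maf partners, corepressors and genes known as repressed by a member (circles replicate 1, squares replicate 2, open symbols no promoter peak). Prdm1 has the lowest percentile of the 5 members in both replicates (60.2 and 59.1), and Bcl6b, Gfi1b, Ctbp2, Ciita, Pax5 and Csf1r have no promoter peak in either replicate.

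The genes most like each member in promoter strength and distal density, by distance over the 4 percentiles of the 2 replicates, were Gmnn (1.70 percentile points) and Ripk1 (2.86) for Bach2 and Commd7 (3.60) and Rbck1 (3.89) for Bcl6. For Prdm1 they were Cnbd2 (3.89) and Shc4 (3.90), for Gfi1 Nfe2l2 (3.17) and Stambpl1 (3.89), and for Zeb1 Mbnl2 (1.43) and Fam214a (3.10). No member was among the 2 nearest genes of another, which says little about how alike the members are, since only 2 of 21701 genes were taken.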

How the data were processed

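DNase-seq of the thymus of 2 mice was analysed from the files the authors deposited for each replicate. The signal of each peak, used as its strength, was computed by the authors from that replicate's own alignments to mm10, as deposited, with no pooling. The q-value (FDR, false discovery rate) of each run of bases was computed by the authors from the same alignments, as deposited, and only runs under 0.05 are listed. Footprints were also called per replicate by the authors. Not given in the sources used here were the aligner, the peak and footprint callers, the read depth and the handling of CAST alleles. The longer peak list was used. The signal carries a factor per sample that is not given, so replicates were compared by percentile.

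Annotation was GENCODE M21 basic (mm10), and sequence came from RefSeq's GRCm38.p6, which has the same primary chromosomes as mm10. The RefSeq promoter table matched 4 of the 5 genes, with 6 promoters. Coordinates are 1-based. Distal peaks with midpoints in the gene record and 100 kb to each side were counted. Consensus strings numbered 14. The share over all elements was weighted to the members' width classes of 20 bp.

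Named for each gene were its promoter peaks, the 3 strongest shared distal elements by mean percentile, the farthest shared ones, and any strong element that differed by over 40 percentile points, of which there was none. Like genes were the 2 nearest over 4 percentiles. The genes, lists, strings and rules were chosen with earlier results of these data known. One of the marker genes is not reported here. Counting was checked on simulated data. Wilson intervals are at 95%. With 1 group and 2 replicates, no test was made, and comparisons are descriptions. Alternatives were a stricter list, other flanks, TSS windows and overlaps, and leaving out each replicate. Python 3.11.15, pandas 2.3.3, numpy 2.4.6, scipy 1.17.1, statsmodels 0.14.6, pysam 0.24.0 and matplotlib 3.10.9 were used.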

Additional observations from a re-analysis of the deposited data

How the results depend on the processing

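All 5 promoters were open under every alternative run (stricter peak list, TSS window of 2000 bp, outermost TSS only, all GENCODE transcripts and each replicate alone). Distal peaks per 100 kb depended on the list and the flank. With the stricter peak list they were 5.30 for Bach2, 6.70 for Bcl6, 2.75 for Prdm1, 7.88 for Gfi1 and 1.69 for Zeb1. With 25 kb flanks they were 7.55, 21.0, 7.08 and 27.8 for Bach2, Bcl6, Prdm1 and Gfi1. With 250 kb flanks they were 5.61, 3.89 and 4.68 for Bach2, Prdm1 and Zeb1, so Zeb1 was no longer the lowest, and Bcl6 (11.1) and Gfi1 (11.0) were level. Bach2 had 5.66 with 2000 bp around each TSS left out and 6.85 with the starts of all GENCODE transcripts, and Zeb1 had 2.35 without the weakest 20% of peaks, the last 2 settings being chosen after the data were seen. With each replicate alone the density ran from 6.94 to 7.31 for Bach2, 8.04 to 11.2 for Bcl6, 4.46 to 6.18 for Prdm1, 10.5 to 15.8 for Gfi1 and 2.87 to 3.65 for Zeb1.

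The share of distal peaks found in both replicates, 71.5% as the mean of both, fell to 49.0% when a reciprocal overlap of 50% was asked. No share over all distal peaks at that overlap was set beside it. Footprints per peak were 2.78 for Bcl6 when wholly inside the peak, and 2.50 and 1.80 for Bcl6 and Gfi1 in distal peaks. In bases covered by peaks of both replicates, the BACH string was in 0 elements, the AP-1 string in 3, the BCL6 string in 4, the GFI1 string in 0 and the ZEB string in 23, since fewer bases were searched. These counts have no share over all elements beside them, so whether the BCL6 string stays above its background in such bases was not tested. Among open genes only, mean promoter percentiles were 68.3 for Bach2, 45.4 for Bcl6, 33.8 for Prdm1, 47.0 for Gfi1 and 63.9 for Zeb1. No paired analysis was possible because the replicates form 1 group. Read depth, which limits how many weak peaks can be seen, is unknown.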

Other observations

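Beyond 100 kb the flanks of Bcl6 were lopsided. The 5 successive steps of 100 kb upstream held 6, 19, 12, 11 and 18 distal peaks in replicate 1, with 9, 15, 32, 10 and 16 in replicate 2 and no protein-coding gene before Lpp in the last step. The 5 steps downstream held 4, 2, 0, 1 and 2 in replicate 1, and replicate 2 had 4, 2, 1, 5 and 3 there. The upstream count was the higher in each of the 5 steps of each replicate. By mean percentile, the strongest shared element between 100 and 500 kb from the gene lay 271.1 kb upstream, at chr16:24259761-24260140, with strengths of 11.3 and 3.88. Prdm1 had few peaks on its upstream side, with 2, 0 and 0 in replicate 1 between 100 and 400 kb, and 0, 1 and 0 in replicate 2.

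For 3 other members the strongest shared element between 100 and 500 kb from the gene was among the strong peaks of the series. It lay 398.2 kb downstream of the Zeb1 start, with strengths of 14.0 and 5.54, above the Zeb1 promoter in both replicates, 668.0 kb downstream of the Bach2 start inside Ankrd6 (12.7 and 3.46), and 366.3 kb downstream of the Gfi1 start inside Brdt (6.25 and 5.82). For Prdm1 the strongest such element had 2.24 and 2.50 (78.8 and 86.0 percentiles). Each is the strongest of many peaks over a long range, and the same was not computed for other genes. Whether such strong elements are unusual near a gene, and which gene an element serves, was not tested.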
